A study of Homo sapiens with 7 samples.

Results

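The NRF2 pathway and antioxidant genes described here are 10 genes taken by name, NFE2L2, KEAP1, NQO1, GCLC, GCLM, TXNRD1, SRXN1, SLC7A11, AKR1B10 and OSGIN1, with no threshold on their values, although earlier results of these data were known when the list was drawn up. Through their RefSeq accessions 9 of them matched a probe on the array, out of 19039 genes with a named probe and a value on every array, and OSGIN1 was not analysed here. These 9 genes had 10 probes, 1 each except AKR1B10, which had 2. Of the 9 genes, 8 were above background on all 7 arrays.

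The samples were 7 single-colour Agilent SurePrint arrays of NCI-H520 cells, a human cell line of squamous lung cancer origin, with 1 array per group. All cells were transfected with 6 µg of plasmid, selected with puromycin at 6 µg/mL from 12 h and harvested at 72 h. The plasmid was an empty vector, a non-target shRNA, or an shRNA against the deadenylase PARN, CNOT6, CNOT6L, CNOT7 or NOC (nocturnin, gene symbol NOCT), deadenylases being enzymes that shorten the poly(A) tail of mRNA. Untransfected cells were not analysed here. Each group is 1 transfected culture of 1 line, so the differences reported have no replicate check, and the labels give the CNOT6L and NOC shRNAs the same target accession. The empty-vector, non-target, PARN and CNOT6 arrays lay in the first row of the slide and the CNOT6L, CNOT7 and NOC arrays in the second row, which held no control.

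NRF2, the protein of NFE2L2, is the transcription factor that switches on antioxidant and detoxification genes. In unstressed cells KEAP1 holds it and hands it to a CUL3 ubiquitin ligase for degradation, and oxidants or electrophiles that modify KEAP1 let NRF2 build up, pair with a small MAF protein and bind the antioxidant response element in the DNA of its target genes. Squamous lung carcinomas are known for mutations in NFE2L2 and KEAP1 that keep the pathway on. Since NRF2 is controlled mainly through its protein, the arrays measured the mRNA of the pathway and not the activity of the factor.

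The core of the antioxidant response element, TGACNNNGC, was searched on both strands of the RefSeq promoter windows, each 300 bases long from 250 bases before to 50 bases after a transcription start (GRCh38.p14). It was found in windows of 3 of the 8 genes of the 10 that have one, GCLM, TXNRD1 and KEAP1, against 16.1% of 27305 genes with a window. The stretches are printed to show where these genes match the core in the windows, and binding of NRF2 there was not tested. A further match in the first of the TXNRD1 windows runs across the start itself and is not printed. Each is given on the gene's strand, with the 9 bases of the match in capitals, and positions count from the start.
GCLM, chr1:93909446-93909474, minus strand, match from -34 to -26: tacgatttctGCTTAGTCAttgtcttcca
TXNRD1, chr12:104215670-104215698, plus strand, match from -99 to -91: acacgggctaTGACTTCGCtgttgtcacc
TXNRD1, chr12:104286920-104286948, plus strand, match from -102 to -94: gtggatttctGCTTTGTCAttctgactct
KEAP1, chr19:10502807-10502835, minus strand, match from -54 to -46: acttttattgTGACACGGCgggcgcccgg
KEAP1, chr19:10502784-10502812, minus strand, match from -31 to -23: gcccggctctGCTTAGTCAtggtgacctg
In GCLM and in 1 of the KEAP1 stretches the matched letters were the same 9 bases, GCTTAGTCA, the core read from the opposite strand. Windows of NFE2L2, GCLC, NQO1, SRXN1 and OSGIN1 did not hold these letters, which says nothing of elements further from the start. SLC7A11 and AKR1B10 were not in the promoter table.

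Levels are processed signals in log2, taken relative to each array's own 75th percentile, so that 0 is that percentile and 1 unit is 2-fold. The arrays had a 75th percentile between 1360 and 3939 signal units and 82% to 91.5% of probes above background, and the median SD between paired spots of a probe was 0.05 to 0.07 log2, which covers printing error only. On its own array PARN mRNA was at 45.7% of the mean of both controls, CNOT7 at 54.5%, CNOT6L at 63%, NOCT at 74.8% and CNOT6 at 89.5%. NOCT differed by -0.62 log2 from the empty vector but only by -0.21 from the non-target array, a smaller gap than the 0.41 between the controls. On the other second-row arrays, CNOT6L and CNOT7, NOCT was at 90.7% and 78.6% of the mean of both controls. Its level was -4.94 on the NOC array and -4.87 on the CNOT7 array, so it was little lower than with another shRNA. All 4 epithelial markers were above background on all arrays, while of 7 squamous markers SOX2, KRT6A and PKP1 were above it on all arrays, TP63 on 2, KRT5 on 4 and KRT14 and DSG3 on 1 each. The adenocarcinoma markers NKX2-1 and NAPSA were also above background on every array, as were 3 fibroblast markers at levels between -6.60 and -2.64 and 2 leukocyte markers between -6.17 and -2.83. In such bulk RNA fewer cells of a type and less RNA per cell cannot be told apart.

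The regulators came first. The single NFE2L2 probe was not well above background on any of the 7 arrays, with levels from -10.07 with the empty vector to -9.35 with the CNOT6 shRNA, so neither a level nor a change can be given for NRF2 mRNA. KEAP1, the adaptor that holds NRF2, was printed on 10 spots and was the steadiest of the measured genes. Its level was 2.34 with the empty vector, 2.34 with the non-target shRNA, 2.32 with PARN shRNA, 2.24 with CNOT6 shRNA, 2.07 with CNOT6L shRNA, 2.32 with CNOT7 shRNA and 2.26 with NOC shRNA. All 5 shRNA arrays lay below both controls for KEAP1 alone among the 8 detected genes, an order found in 3.98% of 16464 genes above background on all arrays, and it was not seen in the deposited series table or without scaling between arrays. The whole KEAP1 range was 0.27 log2, and 94.4% of genes had a wider one.

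Glutathione synthesis was represented by its rate-limiting enzyme, glutamate-cysteine ligase, and by the importer of its precursor cystine. GCLC, the catalytic subunit, stood at 1.49 with the empty vector, 1.88 with the non-target shRNA and 1.48, 1.72, 1.70, 1.48 and 1.70 with PARN, CNOT6, CNOT6L, CNOT7 and NOC shRNA. No shRNA array lay above the non-target array, and those with PARN and CNOT7 shRNA lay just under the empty vector. GCLM, the modifier subunit that raises the activity of the enzyme, was at 3.65 with the empty vector and 2.85 with the non-target shRNA, and at 3.17, 3.1, 2.83, 2.55 and 2.36 with the same 5 shRNAs. The 0.80 log2 between the controls was the widest control gap of the 8 detected genes. With PARN and CNOT6 shRNA GCLM lay between the controls. With CNOT7 shRNA it differed by -1.10 from the empty vector and by -0.30 from the non-target array, and with NOC shRNA by -1.29 and -0.49. Both passed 2-fold against the empty vector and neither did against the non-target array. Without scaling the CNOT7 array lay 0.48 above the non-target array. From the control mean GCLM then differed by -0.17 with CNOT7 shRNA, while the median of all genes was 0.51 above that mean. SLC7A11, the cystine transporter xCT, was at 2.01 and 1.79 on the empty-vector and non-target arrays and between 1.63 with CNOT7 shRNA and 2.06 with CNOT6 shRNA on the others.

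TXNRD1 and SRXN1 serve the thioredoxin system. TXNRD1, the cytosolic thioredoxin reductase, was at 0.97 with the empty vector, 1.11 with the non-target shRNA, 1.18 with PARN shRNA, 1.11 with CNOT6 shRNA, 0.86 with CNOT6L shRNA, 0.97 with CNOT7 shRNA and 0.86 with NOC shRNA. The whole range was 0.32 log2 and the second slide row held the 3 lowest values, although the CNOT7 and empty-vector arrays were equal to 2 decimals. SRXN1, sulfiredoxin, which repairs over-oxidised peroxiredoxins, was at 3.12 and 3.19 on the control arrays. It was at 2.63 with PARN shRNA, 3.0 with CNOT6 shRNA, 3.16 with CNOT6L shRNA, 2.40 with CNOT7 shRNA and 2.92 with NOC shRNA. The CNOT7 array differed by -0.71 and -0.79 from the empty-vector and non-target arrays and the PARN array by -0.49 and -0.56, while the difference between the controls was -0.07. With CNOT7 shRNA SRXN1 was at 59.5% of the mean of both controls. Without scaling between arrays the CNOT7 differences were -0.43 and -0.01. From the control mean SRXN1 then differed by -0.22, while the median of all genes was 0.51 above that mean.

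Among the detoxification enzymes, NQO1, a quinone reductase widely used as a readout of NRF2, was at -0.40 with the empty vector and 0.20 with the non-target shRNA. The values with PARN, CNOT6, CNOT6L, CNOT7 and NOC shRNA were -0.61, -0.77, -0.04, -0.22 and -0.47. Only the PARN, CNOT6 and NOC arrays lay below both controls, CNOT6 the furthest with differences of -0.38 from the empty vector and -0.97 from the non-target array, and the controls themselves differed by -0.60. Without scaling the CNOT6 differences were -1.63 and -1.73. From the control mean NQO1 then differed by -1.68 and the median of all genes by -0.97.

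AKR1B10, an aldo-keto reductase that reduces retinal and reactive aldehydes and is often abundant in squamous lung cancers, varied the most of the 8 detected genes. On the probe used for the gene it was at -1.36 with the empty vector, -1.33 with the non-target shRNA, -1.22 with PARN shRNA and -1.38 with CNOT6 shRNA. On the second slide row it was at -1.59 with CNOT6L shRNA, -1.97 with CNOT7 shRNA and -2.73 with NOC shRNA. The first-row arrays thus lay close together, and all the second-row arrays lay below them. With NOC shRNA AKR1B10 differed by -1.36 log2 from the empty vector and by -1.40 from the non-target array, which put it at 38.4% of the mean of both controls. The range of 1.51 log2 was exceeded by 6.04% of genes. The scan of the NOC array was also put through feature extraction on a different day from the others, and the part of this in its values was not tested.

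The other AKR1B10 probe, printed on 2 spots, gave the same order of the second-row arrays. It read -1.59, -1.27, -1.40 and -1.52 on the empty-vector, non-target, PARN and CNOT6 arrays, and -1.84, -2.25 and -3.02 on the CNOT6L, CNOT7 and NOC arrays. The NOC array differed by -1.43 and -1.75 from the empty-vector and non-target arrays, which put it at 33.2% of their mean. On none of the 7 arrays was a spot of either probe saturated or marked as an outlier.

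**Figure D1:**
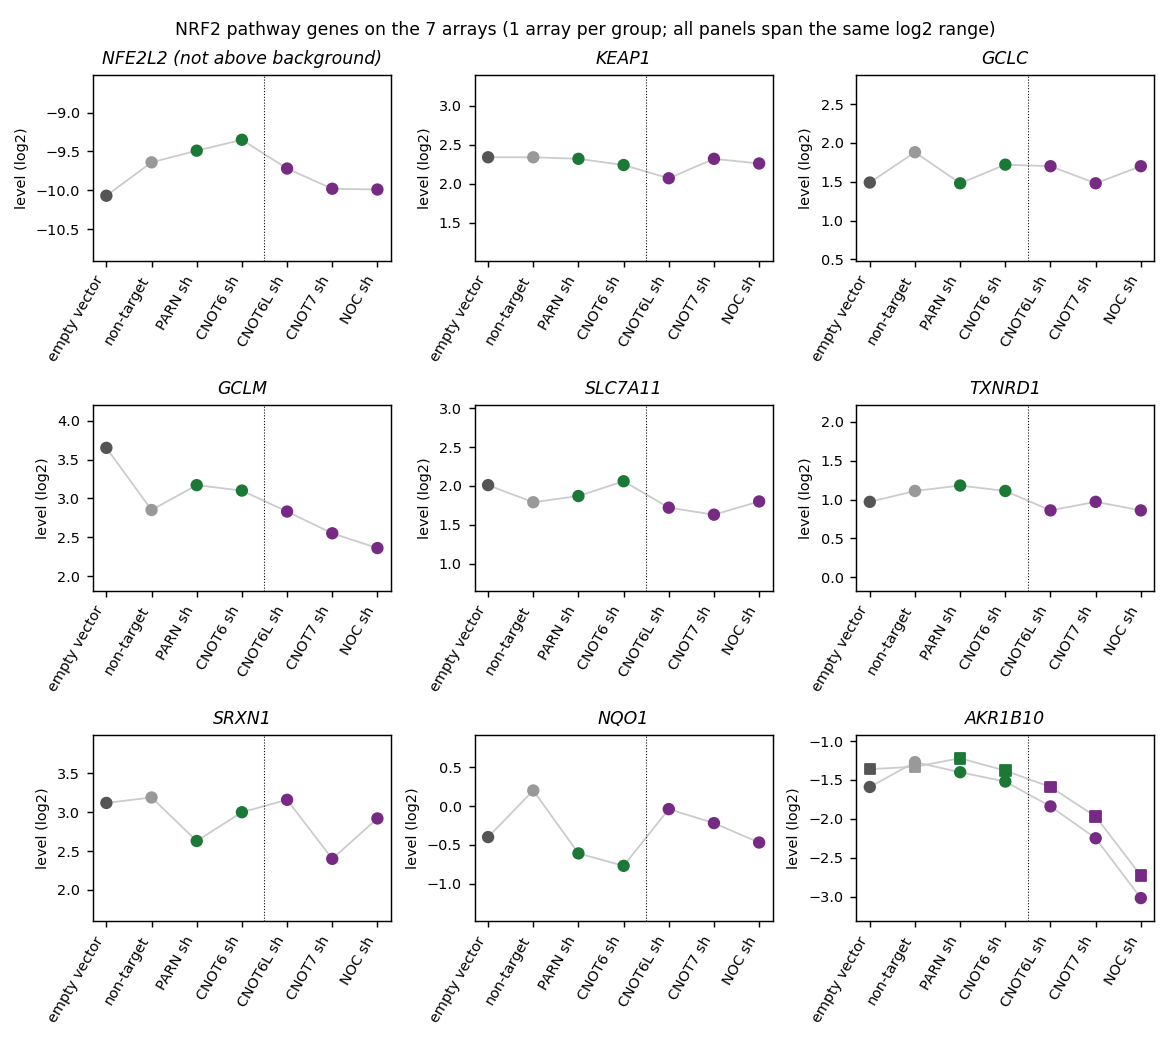
Levels of the 9 matched genes (log2 processed signal relative to the 75th percentile of its array) on the 7 arrays, 1 point per array and no error bars because each group has 1 array; grey points are controls, green points shRNAs of slide row 1 and purple points shRNAs of slide row 2, right of the dotted line. Squares are the AKR1B10 probe used for the gene and circles its other probe; the lines only join the arrays. KEAP1 spans 0.27 log2, while AKR1B10 steps down from -1.59 to -2.73 over the purple points and GCLM differs by 0.80 between the grey ones.

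The arrays were then compared one by one with both controls, to ask whether silencing any deadenylase moved the genes of the pathway. A gene was called when it was higher than both control arrays by 2-fold or more, or lower than both by as much, which is a rule of size and not a test. AKR1B10 with NOC shRNA was the only call in the 5 comparisons. With PARN shRNA 0 of 9 genes were called, against 0.483% of all 19039 genes in either direction. With CNOT6 shRNA 0 of 9 were called against 0.515%, with CNOT6L shRNA 0 of 9 against 0.888%, and with CNOT7 shRNA 0 of 9 against 0.966%. With NOC shRNA 1 of 9 was called, AKR1B10, which was lower, against 1.01% of all genes lower and 1.36% in either direction. NFE2L2, below background throughout, could not have been called in any of them.

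At 1.5-fold the calls with CNOT7 shRNA were SRXN1 and AKR1B10, both lower, against 3.1% of all genes lower, and AKR1B10 remained the only call with NOC shRNA, against 3.43%. AKR1B10 with CNOT7 shRNA differed by -0.60 and -0.64 from the empty-vector and non-target arrays on the probe used and by -0.66 and -0.98 on the other. Without scaling between arrays it was 0.14 above the non-target array with CNOT7 shRNA. The same change of scaling left AKR1B10 with NOC shRNA at -1.40 and -0.94 from the controls and ended its 2-fold call. From the control mean AKR1B10 then differed by -0.09 with CNOT7 shRNA and by -1.17 with NOC shRNA. The median of all genes was 0.51 above that mean with CNOT7 shRNA and 0.19 above it with NOC shRNA. Between the controls themselves 0 of 9 genes differed 2-fold, against 12.2% of all genes.

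**Figure D2:**
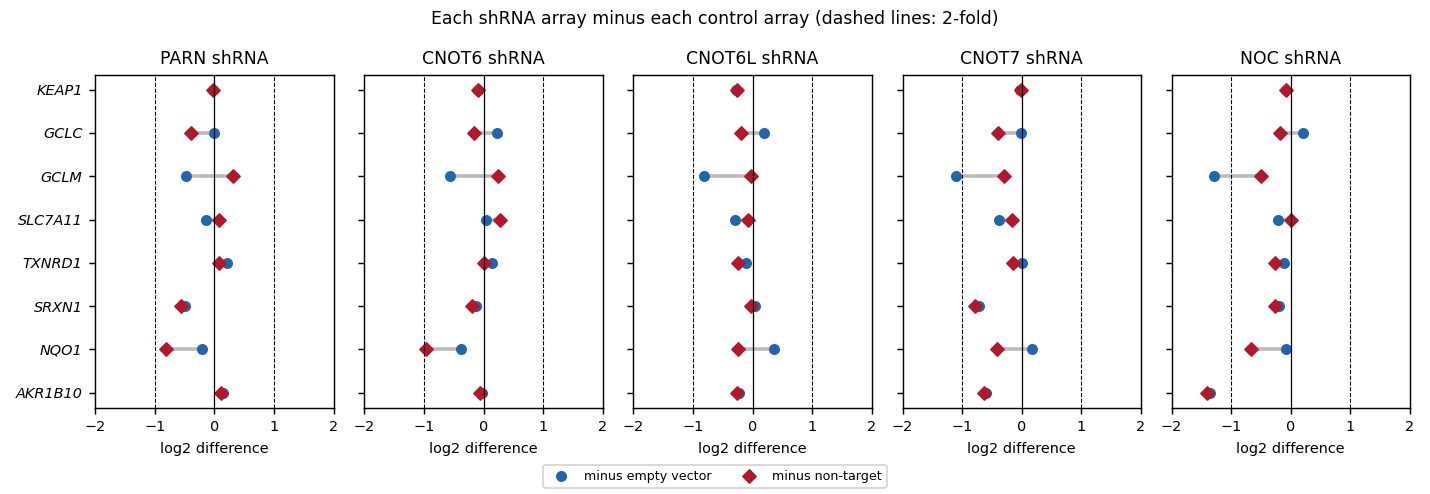
Difference in log2 of each shRNA array from the empty-vector array (blue circles) and from the non-target array (red diamonds) for the 8 genes above background on all arrays; the grey bar between them is the gap between the controls, the solid line is 0 and the dashed lines mark 2-fold. Both symbols lie beyond 2-fold only for AKR1B10 with NOC shRNA, at -1.36 and -1.40.

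As a group the 8 detected genes lay close to the controls. Their median difference from the mean of both controls was -0.06 log2 with PARN shRNA, -0.07 with CNOT6 shRNA and -0.18 with CNOT6L shRNA, beside medians over 16464 genes of -0.02, 0.03 and 0.00. With CNOT7 shRNA the median was -0.24 and 8 of 8 genes were below 0, beside -0.02 and 51.8% of all genes. With NOC shRNA it was -0.21 with 7 of 8 below 0, beside -0.01 and 51.8%. Relative to the median of all genes, 7 of 8 were lower with either of these shRNAs. Without scaling the member medians were 0.30 and 0.00, but that count cannot change, since scaling shifts all genes of an array alike. With quantile normalization 8 of 8 were lower with either shRNA. With normexp it was 6 of 8 with CNOT7 shRNA and 7 of 8 with NOC shRNA. These comparisons share both control arrays and, for CNOT7 and NOC, a slide row. Against the mean of their row mates the member median was -0.01 with CNOT7 shRNA and 0.00 with NOC shRNA, each with 4 of 8 genes below 0. Each of these arrays is a row mate of the other, so a shift shared by both partly cancels there. For the CNOT6L array, against its own row mates, the member median was 0.21 with 3 of 8 genes below 0, beside 0.01 over all genes. Across all 7 arrays the median range of the 8 genes was 0.61 log2, beside 0.62 over all genes.

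Some of these differences went with the slide row. All 3 arrays of the second row lay below all 4 of the first for GCLM, TXNRD1 and AKR1B10, 3 of 8 genes, and 14.9% of all genes had this order. The count of 3 was 1 with the series table, 1 with normexp and 0 without scaling between arrays, alternatives chosen after seeing the data. For 0 of 8 was the second row higher throughout, against 13.7% of all genes. The row means were 3.19 and 2.58 for GCLM, 1.10 and 0.90 for TXNRD1, and -1.32 and -2.09 for AKR1B10. Since the second row held no control, row and shRNA cannot be told apart against the controls, and the second-row arrays were therefore also compared with each other. AKR1B10 with NOC shRNA differed by -1.13 log2 from the CNOT6L array and by -0.76 from the CNOT7 array. It was thus not 2-fold below both row mates, and 0 of 9 genes were called among row mates with CNOT6L, CNOT7 or NOC shRNA, against 0.625%, 0.268% and 0.347% of all genes. SRXN1 with CNOT7 shRNA differed by -0.76 from the CNOT6L array and by -0.51 from the NOC array. GCLM with NOC shRNA differed by -0.47 from the CNOT6L array and by -0.19 from the CNOT7 array.

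The 5 shRNA arrays were also tested as 1 arm against the 2 controls with limma. Its spread is then that between different shRNAs and between the 2 control plasmids. None of the 8 genes passed an adjusted p of 0.05, all 9 of their probes having an adjusted p of 1, and 0 of 38005 probes passed, with 1425 below an unadjusted 0.05 and no member probe among them. The largest estimates were -0.58 log2 (SE 0.38) and -0.43 (SE 0.35) for the AKR1B10 probes, -0.45 (SE 0.26) for GCLM, -0.33 (SE 0.19) for SRXN1 and -0.32 (SE 0.23) for NQO1. KEAP1 was at -0.10 (SE 0.11). The estimates moved with the arrays used. GCLM was at -0.12 with slide row as a term, -0.05 when the empty-vector array was left out and -0.85 (adjusted p = 0.813 in limma) when the non-target array was. NQO1 was at -0.59 (adjusted p = 0.925 in limma) with slide row as a term, -0.62 (adjusted p = 0.47 in limma) with the empty-vector array left out and -0.03 with the non-target array left out. The AKR1B10 probe used for the gene was at 0.05 with slide row as a term. Because the second row held no control, that term leaves the estimate to PARN and CNOT6 shRNA against the controls. The first row alone gave the same -0.12 for GCLM, -0.59 for NQO1 and 0.05 for AKR1B10. These estimates therefore say nothing of CNOT6L, CNOT7 or NOC shRNA.

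The 5 genes whose profile over the 7 arrays was most like that of AKR1B10, among 16456 genes, were AKR1B15, STMN2, LINC02418, MRGPRX3 and NR0B1, by the root mean square difference of profiles centred on their own means. AKR1B15, a close relative of AKR1B10 in the same family of reductases, differed from that profile by 0.08 log2, and with NOC shRNA it differed by -1.49 and -1.68 from the empty-vector and non-target arrays. Because the sequences of the paralogs are similar, their probes may share signal and the values of AKR1B10 and AKR1B15 are uncertain as separate genes. AKR1B1, the aldose reductase of the same family, did not follow them: it was between 2.09 and 2.50 on the first-row arrays and at 2.82, 2.86 and 2.70 with CNOT6L, CNOT7 and NOC shRNA. STMN2, a microtubule-regulating stathmin, differed from the AKR1B10 profile by 0.15, the noncoding RNA LINC02418 and the receptor gene MRGPRX3 by 0.17 each, and NR0B1, an orphan nuclear receptor, by 0.20. With NOC shRNA these 4 genes differed from the mean of both controls by -1.59, -1.13, -1.10 and -1.02 log2. The NOC array was among the arrays by which the 5 genes were picked, so low values there follow from the choice.

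**Figure D3:**
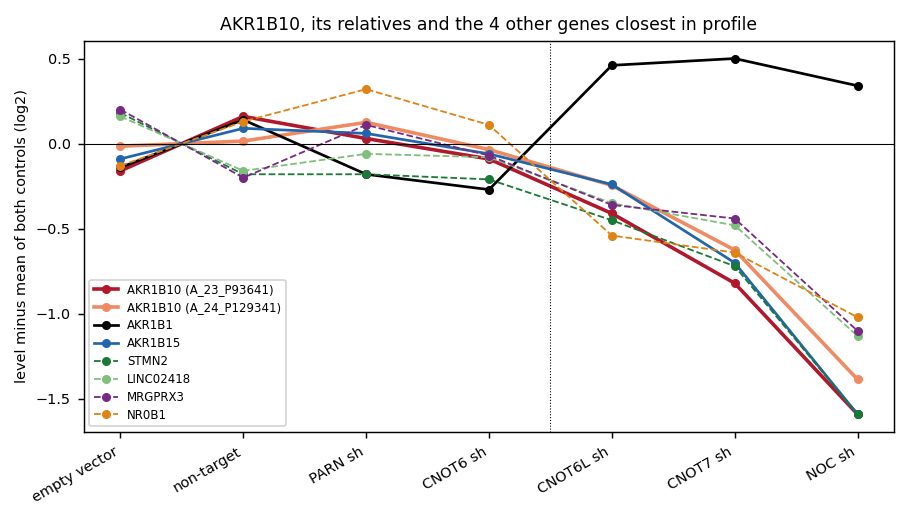
Level of both AKR1B10 probes, of AKR1B15 and AKR1B1 and of the 4 other genes closest to AKR1B10 in profile, each minus the mean of its 2 control arrays (log2), on the 7 arrays; arrays right of the dotted line are in slide row 2, and each point is 1 array. With NOC shRNA the AKR1B10 probes lie at -1.38 and -1.59 and AKR1B15 at -1.59, while AKR1B1 is above its controls.

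Of 44 further genes of the pathway and of antioxidant defence, 42 matched a probe and all 42 were above background on every array. With PARN shRNA 1 of 42 was called, FTL, the ferritin light chain that stores iron, and it was lower, against 0.331% of all genes lower. It was at 2.08 with PARN shRNA, 3.72 and 4.01 on the empty-vector and non-target arrays, and between 3.72 and 3.95 on the 4 other arrays, with no overlap. Its other probe read 1.83 with PARN shRNA against 3.49 and 3.77, and since ferritin has many near-identical pseudogene copies both probes may read more than 1 locus. FTH1, the heavy chain, was not called with any shRNA. With CNOT6L shRNA 1 of 42 was called, MAFF, a small MAF protein that pairs with NRF2, again lower, against 0.657% of all genes lower. With CNOT6, CNOT7 and NOC shRNA 0 of 42 were called, against the shares of all genes given for the members. These calls rest on 1 probe per gene. Of 11 further probes of the list, besides that of FTL, 1 of ABCC3, a drug and conjugate efflux pump, was also 2-fold below both controls. It read -5.61 and -5.11 on the empty-vector and non-target arrays, -6.72 with PARN shRNA, -7.10 with CNOT6 shRNA and -5.10, -5.49 and -5.77 with CNOT6L, CNOT7 and NOC shRNA. The ABCC3 probe used for the gene did not follow it, with -5.67 and -5.60 with PARN and CNOT6 shRNA against -5.56 and -5.33 on the control arrays, so the probes disagreed.

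MAFF was at -1.08 with the empty vector, -0.76 with the non-target shRNA, -1.02 with PARN shRNA and -1.01 with CNOT6 shRNA, and at -2.13, -1.96 and -1.96 with CNOT6L, CNOT7 and NOC shRNA. The second-row arrays lay together, within 0.18 log2 of each other, and below the first row (row means -0.97 and -2.02), and the CNOT6L call was lost with quantile normalization, without scaling and with normexp. MAFG, another small MAF partner, was at 2.83 and 3.16 on the control arrays and at 2.82, 2.74, 2.53, 2.13 and 2.56 with PARN, CNOT6, CNOT6L, CNOT7 and NOC shRNA, and its second probe kept to a narrower span, from 1.57 to 2.04. On that second probe 3 shRNA arrays lay below both controls, while PARN and NOC, at 1.83 and 1.87, lay above the empty vector at 1.79. CUL3, the scaffold of the ligase that degrades NRF2, was at 4.51 and 4.45 on the control arrays and between 4.57 and 4.92 on the shRNA arrays. Its other probe did not separate them, with -3.32 and -4.49 on the control arrays and -4.00 to -3.30 on the others. BACH1, a repressor at the same DNA element, was at 0.77 and 0.95 on the control arrays, at 0.64 and 0.81 with PARN and CNOT6 shRNA and at 1.25, 1.12 and 1.17 on the second row. Its other probe put the second row, at -3.69, -3.50 and -3.51, between the controls at -3.28 and -4.07.

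The controls themselves differed on this list, the median of empty vector minus non-target being -0.23 log2 with 36 of 42 genes below 0, beside 0.02 and 47.6% of all genes. Over 6 measured glutathione genes the median difference from the control mean ran from -0.11 with NOC shRNA to 0.11 with CNOT6L or CNOT7 shRNA, with 0 of 6 called. Over 11 detoxification genes it ran from -0.13 with PARN shRNA to 0.12 with CNOT6L shRNA, and the largest single gap was that of PTGR1, prostaglandin reductase, at -0.75 with CNOT6 shRNA against -0.04 and 0.41 on the control arrays. HMOX1, heme oxygenase and a classic stress-induced NRF2 target, was at 2.40 and 3.01 on the control arrays and between 2.39 and 2.99 with the 5 shRNAs. Over the 3 efflux pumps it ran from -0.40 with NOC shRNA to -0.07 with PARN shRNA. On the probe used for each gene, none of the 5 NADPH-supplying enzymes, 3 thioredoxin and peroxiredoxin genes, 3 efflux pumps or 5 other antioxidant enzymes was called with any shRNA. SOD2, the mitochondrial superoxide dismutase, was at 2.35 on both control arrays and between 2.54 and 2.71 on all 5 shRNA arrays. This order, all 5 shRNA arrays above both controls, held for 3 of 42 genes (CUL3, PRDX6 and SOD2) and for 2.96% of all genes, and for 0 of the 8 members. The opposite order held for 1 of 42, MAFG on the probe used but not on its second probe, beside the 3.98% of all genes. In limma 0 of these 42 genes passed over the 5 shRNA arrays, each probe having an adjusted p of 1.

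**Figure D4:**
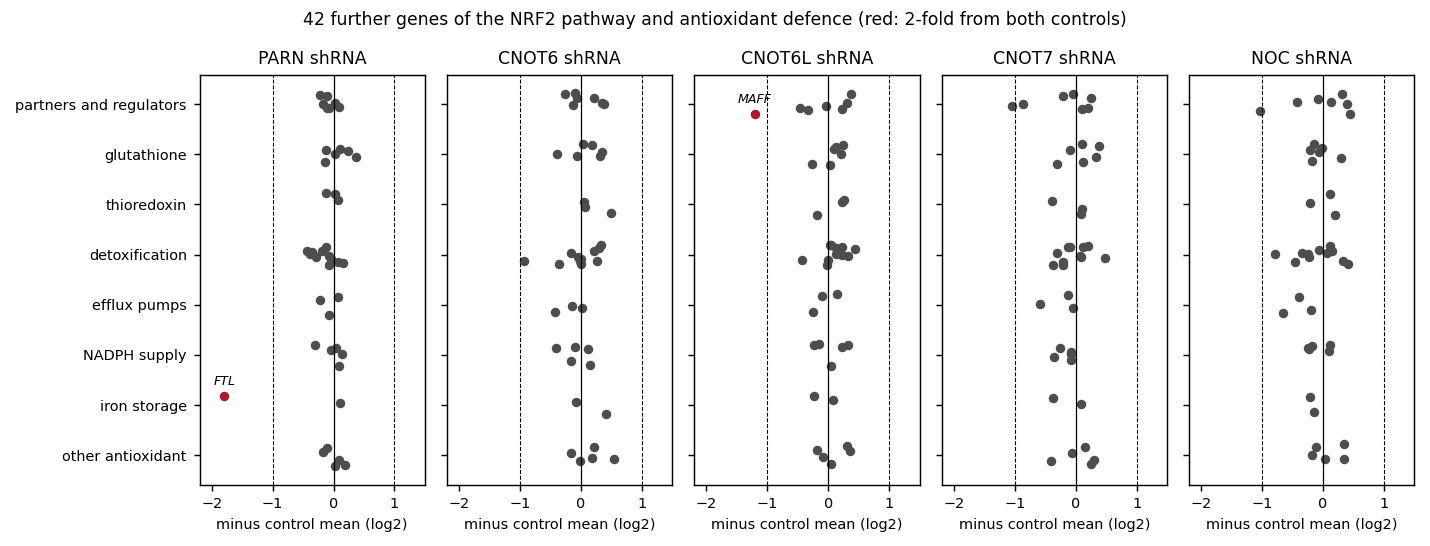
Difference of each shRNA array from the mean of both controls (log2) for the 42 measured genes of the pathway list, 1 point per gene (its probe with the highest mean level) in rows of gene groups with small vertical offsets for legibility; dashed lines mark 2-fold and red points are genes 2-fold from both controls. FTL with PARN shRNA, at -1.79, and MAFF with CNOT6L shRNA, at -1.21, are the red points.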

How the data were processed

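Total RNA of NCI-H520 cells was hybridised to Agilent single-colour arrays. The scanner files that the authors deposited were made, per the file headers, with Feature Extraction 10.7.3.1. For each array they list an intensity at 62976 spots, and the processed signal used here is already background-corrected. The deposited series table holds log2 values, shifted per array and centred per probe. Its 7 columns served as an alternative, and differences between arrays taken from it and from the scanner files fell within 0.02 log2, after 1 shift per array, for 100% of the probes compared. Columns of the authors' own comparisons were not used.

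Groups came from the labels. Control and outlier spots were dropped, spots of a probe averaged, and log2 processed signal was reduced by the 75th percentile of each array (numpy 2.4.6, pandas 2.3.3). Above background means that 50% or more of a probe's spots carried the scanner software's mark of a signal well above it. RefSeq accessions named 24827 of 42405 gene probes (the CNOT6 accession of the labels with its leading zero restored). A gene was read from its named probe with the highest mean level, and differed 2-fold only if it did so from both controls, with a dim side raised to the lowest level above background on that array. The 5 shRNA arrays were compared with both controls in limma 3.58.1 (R 4.3.3; lmFit, then eBayes with trend; two-sided p-values, Benjamini-Hochberg over the 38005 probes detected on at least 2 arrays). The script was tested on simulated data. With 1 array per group the number of arrays limits the precision, and p-values measure only the spread between these arrays.

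The genes, the pathway list and the rules for naming genes were chosen with earlier results of these data known. Named were the 10 genes, the 5 targets, pathway genes that were called or were the 2 highest or lowest of their group, and the 5 profiles nearest to the gene with the widest range. HMOX1, AKR1B1 and, as examples, FTH1 and BACH1, and the further probes of ABCC3, CUL3 and BACH1, were added after their values were seen. Alternatives covered quantile normalization, no scaling, normexp (offset 50), the series table, outlier spots kept, the mean over probes, 1.5-fold, each array left out and, in limma, slide row, the filter on dim probes and the trend.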

Additional observations from a re-analysis of the deposited data

Results flagged for a closer look

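TXNRD1 lay on opposite sides of the controls in the slide rows, though the CNOT6 and CNOT7 arrays each equalled 1 control to 2 decimals. The second row lay wholly below the first for 14.9% of all genes, and 89% of genes had a wider range than TXNRD1. The shRNA arrays of the second row were on average 0.25 log2 lower than those of the first row (-0.25). Against both controls PARN and CNOT6 shRNA lay at or above, and CNOT6L, CNOT7 and NOC shRNA at or below. The difference was not tested, and with the series table, with normexp or without scaling the second row no longer lay wholly below the first.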

How the results depend on the processing

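Of 130 counts over the alternatives, 113 stayed within 1.5 times the value reported and 17 moved, and none reversed, which counts cannot do. Many of the reported counts were 0, and for these staying means only that again no gene was called. For the members, the AKR1B10 call with NOC shRNA was kept with the other settings but lost without scaling (0), where NQO1 was called with CNOT6 shRNA (1), GCLM between the controls (1) and AKR1B10 with NOC shRNA against its row mates (1). Against 1 control at a time the calls ranged from 0 to 1 with CNOT7 shRNA and from 1 to 2 with NOC shRNA, GCLM being added against the empty vector alone. At 1.5-fold 2 members were called with CNOT7 shRNA. On the pathway list, CNOT6 shRNA had 11 calls without scaling, 1 (PTGR1) at 1.5-fold and 0 to 1 against single controls. MAFF with CNOT6L shRNA was lost (0) with quantile normalization, without scaling and with normexp. CNOT7 shRNA had 2 (MAFF, MAFG) at 1.5-fold and 0 to 2 against single controls, and NOC shRNA 1 (MAFF) and 0 to 2. The difference of AKR1B10 with NOC shRNA from the control mean, -1.38, was -1.30 with quantile normalization, -1.17 without scaling, -1.31 with normexp and -1.49 as the mean of its probes. The count of members with the second slide row below the first, 3, an alternative chosen after seeing the data, was 4 with quantile normalization, 0 without scaling, 1 with normexp and 1 with the series table. Without scaling the median of all genes moved by -0.35, -0.97, 0.40, 0.51 and 0.19 log2 with PARN, CNOT6, CNOT6L, CNOT7 and NOC shRNA. In limma no member passed under any alternative, while over all probes 3 passed without scaling, 51 with the empty-vector array left out and 1 with the non-target array left out. No paired analysis was possible because each group has 1 array and all labels carry the same replicate number. With 1 array per group and shRNA, the difference between cultures was not measured, and NFE2L2 is limited by signal at background.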
